A study of Mus musculus with 12 samples.

Results

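Genes that respond to mechanical load through the cofactor YAP and the transcription factor SRF were followed in ribosome-bound RNA of the mouse small intestinal muscularis. The set held the 7 genes Cyr61, Ctgf, Amotl2, Ankrd1, Thbs1, Srf and Yap1, taken by gene name from the 12975 genes of the deposited count table, and all 7 were present. Libraries came from PLPCreERT2 Rpl22HA mice (allele Rpl22tm1.1Psam, in a line congenic on B6J by its name in the labels), which were 10 to 12 weeks old when all of them, controls included, received 2 intraperitoneal injections of 100 µl tamoxifen at 15 mg/ml, and which were killed 3 to 4 weeks after the first injection. They were either naive (T0, 3 mice) or taken 3 h after intestinal manipulation (T3, 3 mice), in which the small bowel is externalised and handled so that its muscle becomes inflamed. The cleared homogenate of each mouse was divided between an anti-HA antibody and a mouse IgG1 control antibody, which gave 3 libraries in each of the groups HA T0, HA T3, IgG T0 and IgG T3. The tag is carried only by cells in which the tamoxifen-inducible Cre was active, and RNA in the IgG libraries is background of the whole tissue rather than RNA of untagged cells.

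YAP is a transcriptional cofactor that the Hippo kinases hold in the cytoplasm. When cells are stretched or their actin network is remodelled it enters the nucleus, binds TEAD factors and switches on genes such as Cyr61, Ctgf, Ankrd1 and Amotl2. SRF binds CArG boxes and is driven by actin through the MRTF cofactors, or by growth factor signalling through the ternary complex factors (Elk genes), and many early response and actin genes depend on it. Cyr61 and Ctgf encode secreted matricellular proteins of the CCN family, Thbs1 encodes the matricellular protein thrombospondin-1, Ankrd1 encodes an ankyrin repeat protein of muscle and stressed cells, and Amotl2 encodes an angiomotin that binds YAP and restrains it. Enteric glial cells lie in ganglia between the muscle layers of the gut, which deform with each contraction.

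In the genome build of the files (mm10, annotation GENCODE vM21), Cyr61 lies at chr3:145646976-145649981 and Srf at chr17:46548329-46556175, both on the minus strand. Ctgf lies at chr10:24595442-24598683, Thbs1 at chr2:118111876-118127133 and Amotl2 at chr9:102716672-102733418, all on the plus strand. Yap1 lies at chr9:7931999-8004596 and Ankrd1 at chr19:36111961-36120099, both on the minus strand. The annotation names Cyr61 and Ctgf by their newer symbols, Ccn1 and Ccn2.

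Promoter sequence from RefSeq (GRCm38.p6) was matched by gene ID to 5 of the 7 genes, Cyr61, Amotl2, Ankrd1, Srf and Yap1, and Ctgf and Thbs1 were not matched. The 250 bases before each RefSeq start were searched on both strands for the TEAD motif GGAATG, read as CATTCC on the other strand, and for the CArG box bound by SRF. The TEAD motif is present in 12.6% of the 32851 promoters of the table and the CArG box in 1.47%. Cyr61, Amotl2 and Yap1 each held 1 TEAD motif and Ankrd1 held 2, while Srf held 2 CArG boxes and no TEAD motif. None of the 5 held the AP-1 motif TGANTCA, which is present in 6.75% of all promoters. A match describes letters and not a bound site. The Cyr61 and Srf promoters are shown because their genes gave the largest and the smallest fitted change with time among the 7, at chr3:145649986-145650235 and chr17:46556176-46556412, minus strand, with the motifs in capitals.
Cyr61: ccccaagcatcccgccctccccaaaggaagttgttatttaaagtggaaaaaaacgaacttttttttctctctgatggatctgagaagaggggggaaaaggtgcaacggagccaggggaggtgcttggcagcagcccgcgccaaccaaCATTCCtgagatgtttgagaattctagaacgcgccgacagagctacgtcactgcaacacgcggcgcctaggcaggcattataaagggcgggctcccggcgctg
Srf: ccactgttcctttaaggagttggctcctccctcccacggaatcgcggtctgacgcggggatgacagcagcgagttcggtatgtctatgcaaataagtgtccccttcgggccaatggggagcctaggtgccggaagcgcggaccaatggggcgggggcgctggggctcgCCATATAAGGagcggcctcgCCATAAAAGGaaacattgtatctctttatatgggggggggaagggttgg

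The TEAD motifs of the other genes are shown as short windows, again in capitals and 5′ to 3′ on the strand of the gene. Yap1 carried its motif at chr9:8004732-8004737 and Amotl2 at chr9:102717739-102717744, the latter inside an annotated exon. Ankrd1 carried its motifs at chr19:36120049-36120054 and chr19:36119962-36119967, both inside an annotated exon of another transcript.
Yap1: agtctgcaGGAATGtagcgacg
Amotl2: aactctcaCATTCCtggcatag
Ankrd1, distal: ctgccaaaGGAATGaccctctc
Ankrd1, proximal: ctaagtctGGAATGaaaattca

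Library totals were 1221788 to 2870591 UMI counts (unique molecules) for HA and 88136 to 1289833 for IgG, and the IgG T3 libraries, at 88136 to 248522, were the shallowest. Levels are given as CPM, the usual scaling of counts by the library total. The limit set by a count of 0, taken as 3 counts, ranged from 1.05 to 34.0 CPM over the libraries and covers counting error only. Rpl22, which encodes the tagged protein, had 83.3 ± 9.02 CPM in HA T0 and 23.8 ± 7.60 in IgG T0 (SD, n = 3). The tissue label held against marker lists, since 10 smooth muscle markers summed to 12929 to 65153 CPM in every library. The 12 glia markers summed to 3859 to 4801 CPM in HA T0 and 4978 to 5422 in HA T3, against 228 to 322 in IgG T0 and 278 to 1407 in IgG T3, where Cdh19 was at 0. In these bulk pull-downs, fewer cells of a type and less RNA per cell cannot be told apart.

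Of the 7 genes, 4 rose in the HA pull-down 3 h after manipulation (Cyr61, Ankrd1, Thbs1 and Yap1), Ctgf fell, and Amotl2 and Srf did not pass the test. The fitted changes ran from a 19.9-fold rise of Cyr61 to a fall of Ctgf to 0.577 of its T0 level. All 7 genes were tested, Ankrd1 because of its counts in HA T3. Among the 9441 genes tested in HA T3 against HA T0, 33.8% passed an adjusted p of 0.05 in either direction, 18.7% higher and 15.1% lower. The median log2 fold change was 1.31 over the 7 genes and −0.016 over all genes tested.

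**Figure D1:**
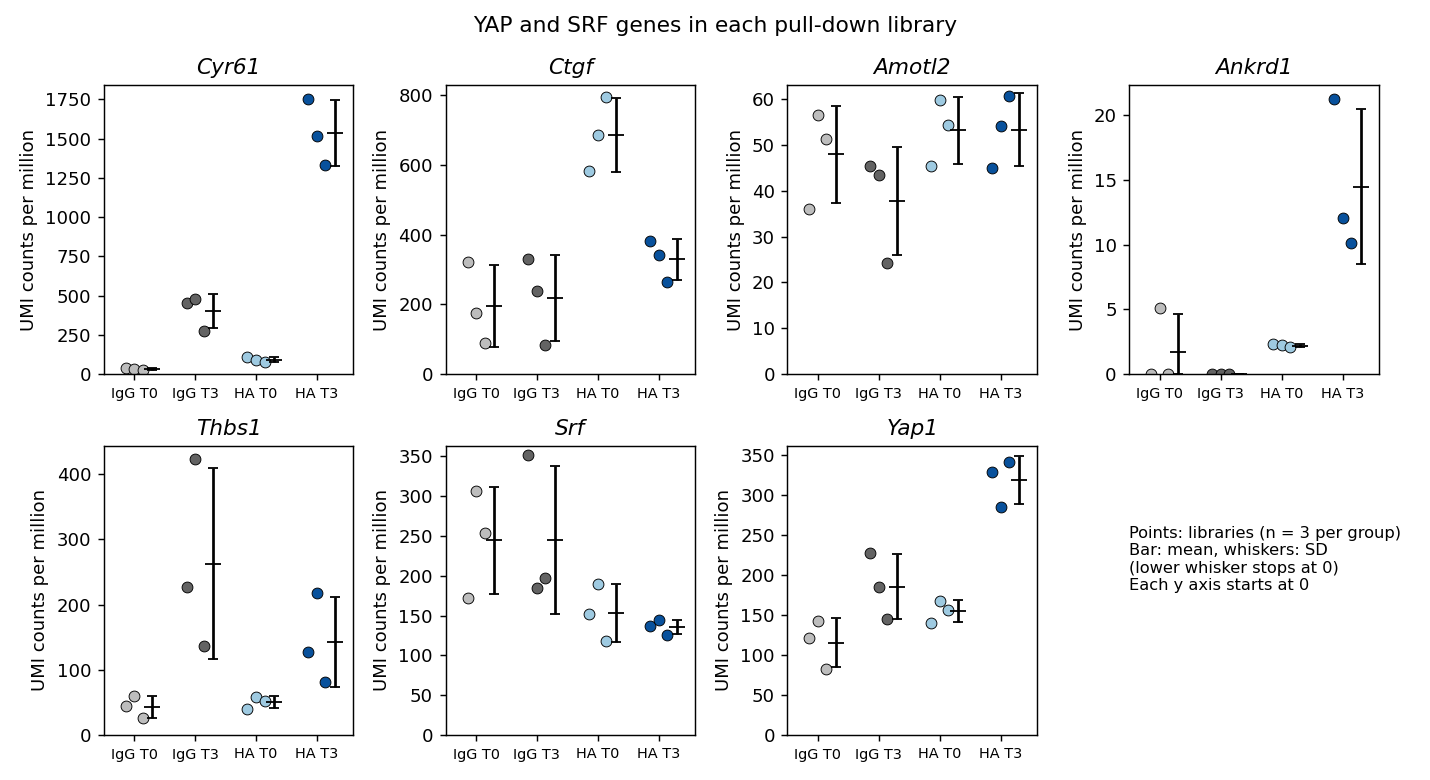
CPM of the 7 genes (y axes, each from 0) in IgG T0, IgG T3, HA T0 and HA T3 libraries; points are libraries, with the mean and SD of 3 libraries beside them. Cyr61 is highest in HA T3 at 1334 to 1755 CPM, whereas Ctgf is highest in HA T0 at 581 to 794 CPM.

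Yap1, the cofactor itself, was at 140, 167 and 156 CPM in HA T0 and at 329, 286 and 342 CPM in HA T3. All HA T3 libraries lay above all HA T0 libraries. Its level was 2.48-fold higher at T3 (log2 fold change 1.31, SE 0.17, edgeR adjusted p = 6.70e-06).

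Srf, the transcription factor, was at 152, 189 and 117 CPM in HA T0 and at 137, 144 and 126 CPM in HA T3. The groups overlapped, with the HA T3 values inside the range of HA T0. The fitted log2 fold change was 0.088 (SE 0.20, edgeR adjusted p = 0.760), and it was −0.17 when libraries were scaled by their totals, a scaling that moved the median of all genes to −0.29. The Amotl2 values, at 45.3, 59.8 and 54.3 CPM in HA T0 and 45.0, 54.2 and 60.7 in HA T3, overlapped as well (log2 fold change 0.28, SE 0.21, edgeR adjusted p = 0.320).

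Cyr61 was at 107, 91.6 and 78.0 CPM in HA T0 and at 1755, 1517 and 1334 CPM in HA T3. The lowest HA T3 library was far above the highest HA T0 library. On the log2 scale the change was 4.32 (SE 0.21, edgeR adjusted p = 2.35e-12), and the p-value of Cyr61 was the 20th smallest of the 9441 genes.

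Ctgf, the closest relative of Cyr61 in the set and a textbook YAP target, took the other direction. It was at 581, 686 and 794 CPM in HA T0 and at 381, 340 and 265 CPM in HA T3, with all HA T3 libraries below all HA T0 libraries. It fell by 0.79 on the log2 scale (SE 0.18, edgeR adjusted p = 0.00177), a call that was lost when all 12 libraries were fitted together (adjusted p = 0.165). The number of Ctgf counts per Cyr61 count, compared between libraries only, was 5.45 to 10.2 in HA T0 and 0.199 to 0.224 in HA T3. In IgG libraries it was 3.41 to 7.81 at T0 and 0.304 to 0.725 at T3, so that the ratio was lower at T3 in every library of both pull-downs. A rise of Cyr61 alone lowers this ratio, so it is no separate evidence of a fall of Ctgf. In IgG, Cyr61 rose by 3.59 on the log2 scale while Ctgf did not pass (0.044, edgeR adjusted p = 0.972). Marker lists of several other cell types moved in HA as well, in a comparison where 15.1% of all genes fell and 18.7% rose. The 10 smooth muscle markers summed to 15607 to 23945 CPM in HA T0 and 12929 to 15225 in HA T3, where 3 of 10 fell. The 8 fibroblast markers summed to 1057 to 1392 CPM in HA T0 and 312 to 546 in HA T3, where 5 of the 7 tested fell, and the 7 mesothelium markers to 199 to 267 and 35.0 to 41.5 CPM, where all 6 tested fell. The 4 markers of interstitial cells of Cajal were, like Ctgf, higher in HA than IgG in naive mice (2 of 4 passing, against 16% of all genes). They summed to 2816 to 3698 CPM in HA T0 and 1319 to 1722 in HA T3, where 3 of 4 fell. The 8 macrophage markers summed to 262 to 539 and 142 to 239 CPM, with 2 of 5 tested falling, whereas the 10 neuron markers summed to 970 to 1127 and 1068 to 1824 CPM, with 3 of 9 tested rising. The 8 endothelium markers summed to 29.6 to 49.7 and 42.6 to 46.8 CPM, with 1 of 3 tested rising. With scaling by totals, 6 of 10 smooth muscle and 4 of 5 macrophage markers fell and 1 of 9 neuron markers rose. The counts of the other lists stayed the same. Apart from the endothelium marker Tek in IgG T3, no marker of these lists was at 0 throughout a group. The part of these cell types in the fall of Ctgf was not tested.

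Thbs1 was at 39.9, 58.7 and 52.3 CPM in HA T0 and at 128, 217 and 81.0 CPM in HA T3. The groups did not overlap, although the HA T3 libraries were spread widely around a mean of 142 ± 69.3 (SD, n = 3). The log2 fold change was 1.78 (SE 0.32, edgeR adjusted p = 0.00177). Platelets and leukocytes also make thrombospondin-1. The 5 platelet and neutrophil markers of 8 that were present summed to 36.9 to 57.6 CPM in HA T0 and 68.9 to 165 in HA T3. Of these, 1 of 3 tested was higher, against 18.7% of all genes. In IgG T0 the 5 summed to 49.7 to 64.4 CPM, with S100a8 and S100a9 at 0, and in IgG T3 to 196 to 310. Their part in the rise of Thbs1 was not tested.

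Ankrd1 had few counts, with 6, 4 and 6 in HA T0 and 26, 18 and 13 in HA T3. In CPM this was 2.30, 2.23 and 2.09 against 21.3, 12.0 and 10.1, without overlap. Its log2 fold change was 2.93 (SE 0.43, edgeR adjusted p = 2.74e-05). It passed the filter on low counts only through the group in which it was high.

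The control pull-down was read for changes that were also present in background RNA. At the depth of the IgG T3 libraries, a gene that did not pass is not shown to be unchanged there. In IgG T3 against IgG T0, Cyr61 and Thbs1 rose, 2 of the 6 genes tested, while Ctgf, Amotl2, Srf and Yap1 did not pass the test and Ankrd1 was too low to be tested. Of all 5219 genes tested, 5.46% passed, 4.43% higher and 1.03% lower.

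**Figure D2:**
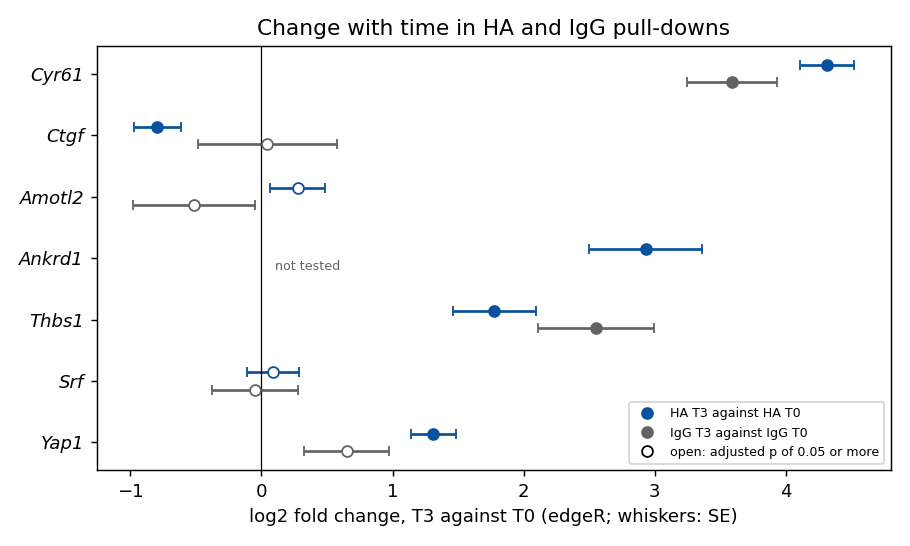
Log2 fold change from T0 to T3 (x axis) of the 7 genes in the HA and IgG pull-downs; points are edgeR estimates, whiskers their SE, and open points did not pass an adjusted p of 0.05. Cyr61 and Thbs1 are filled in both pull-downs, whereas Ctgf, at −0.79 in HA, is at 0.044 in IgG.

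Cyr61 was at 41.2, 30.9 and 26.4 CPM in IgG T0 and at 454, 478 and 278 CPM in IgG T3, again without overlap. On the log2 scale the rise was 3.59 (SE 0.34, edgeR adjusted p = 1.76e-05). These values rested on 16 to 34 counts per library at T0 and 40 to 69 at T3.

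Thbs1 was at 43.8, 60.0 and 25.6 CPM in IgG T0 and at 227, 424 and 137 CPM in IgG T3, without overlap. Its log2 fold change was 2.55 (SE 0.44, edgeR adjusted p = 0.00263). Yap1 was at 121, 142 and 82.2 CPM in IgG T0 and 227, 185 and 145 in IgG T3, which did not overlap, but its log2 fold change of 0.65 did not pass (SE 0.33, edgeR adjusted p = 0.274). The remaining genes overlapped between the time points, with log2 fold changes of 0.044 for Ctgf (adjusted p = 0.972), −0.51 for Amotl2 (adjusted p = 0.572) and −0.049 for Srf (adjusted p = 0.951). Counts per IgG T3 library were 17 to 36 for Yap1, 21 to 29 for Ctgf, 4 to 6 for Amotl2 and 17 to 49 for Srf.

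The interaction of antibody and time, fitted in all 12 libraries, asked whether HA and IgG changed differently. None of the 7 genes passed in edgeR, where 34 of 10314 genes (0.33%) did (158 genes, and again none of the 7, with the replicate block) and 1081 had an unadjusted p under 0.05, and DESeq2 passed none of the 6 it gave an adjusted p. The nearest were Yap1, with a difference of 0.76 on the log2 scale (SE 0.35, edgeR adjusted p = 0.453), and Cyr61, with a difference of 0.81 (SE 0.37, edgeR adjusted p = 0.455). For Ctgf the difference was −0.71 (SE 0.61, edgeR adjusted p = 0.741), and it ran from −1.31 without IgG T0 replicate 1 to −0.30 without IgG T3 replicate 1. Changes that passed in HA but not in IgG are therefore not shown to differ between the pull-downs. The comparisons of time and of antibody use the same libraries, and their values stand side by side here without being tests of each other.

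To see which of the 7 transcripts were enriched with the tag, HA was compared with IgG at each time point. In naive tissue Cyr61 and Ctgf were higher in HA and Srf was lower, 3 of the 6 genes tested, where 30.3% of 9823 genes passed, 16% higher and 14.4% lower. At T3 Cyr61 and Yap1 were higher in HA, 2 of the 6 tested, where 21.9% of 7200 genes passed, 11.8% higher and 10.2% lower. Only Cyr61 passed at both time points, with log2 fold changes of 1.52 (SE 0.27, edgeR adjusted p = 0.000810) and 2.06 (SE 0.29, edgeR adjusted p = 7.25e-05).

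**Figure D3:**
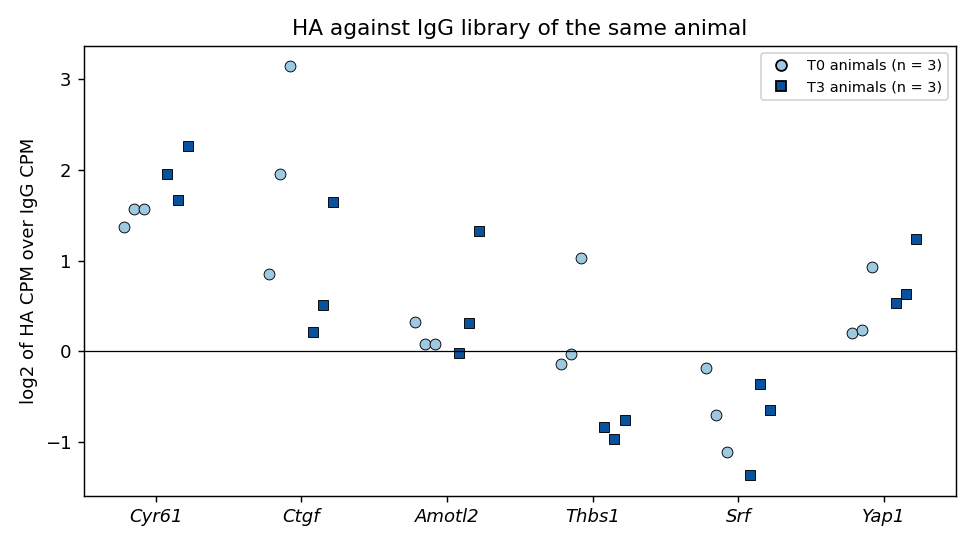
Log2 of the ratio of HA CPM to IgG CPM from the same mouse (y axis) for the 6 genes with counts in every IgG library; circles are the 3 T0 mice and squares the 3 T3 mice. Cyr61 lies above 0 in all 6 mice and Srf below 0 in all 6.

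Within single mice the HA level of Cyr61 was 2.59, 2.97 and 2.96 times the IgG level at T0 and 3.87, 3.17 and 4.81 times at T3. Both ranges lay above 1 and did not overlap. For Ctgf the ratios were 1.81, 3.88 and 8.82 at T0 and 1.16, 1.42 and 3.14 at T3, also above 1 in every mouse but wide. IgG libraries ranged from 89.9 to 322 CPM at T0 and from 84.5 to 329 at T3.

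Ctgf was 3.53-fold higher in HA at T0 (log2 fold change 1.82, SE 0.42, edgeR adjusted p = 0.0140). That call was lost without IgG T0 replicate 2 (adjusted p = 0.0812) or without HA T0 replicate 4 (adjusted p = 0.0516). At T3 the log2 fold change of 0.83 did not pass (SE 0.36, edgeR adjusted p = 0.108), but with the replicate block, which compares the libraries of the same mouse, it was 0.88 and passed (adjusted p = 0.0289). It also passed without IgG T3 replicate 1 (log2 fold change 1.40, adjusted p = 0.0109).

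Srf had an HA to IgG ratio of 0.883, 0.617 and 0.463 at T0 and 0.389, 0.778 and 0.640 at T3, below 1 in all 6 mice. The log2 fold change was −0.70 at T0 (SE 0.24, edgeR adjusted p = 0.0397) and −0.72 at T3 (SE 0.29, edgeR adjusted p = 0.0814), where it passed with scaling by totals (−0.83, adjusted p = 0.0479) and was −0.34 without IgG T3 replicate 1. The T0 call was lost without any 1 of 4 libraries (HA T0 replicate 1 or 4, IgG T0 replicate 2 or 4, adjusted p 0.0953 to 0.168). With the replicate block, which compares the libraries of the same mouse, Srf passed at T0 (−0.72, edgeR adjusted p = 0.00395). It did not pass at T3 with that block (−0.71, edgeR adjusted p = 0.0791). Smooth muscle markers had the same direction, all 10 being lower in HA at T0 and 8 of 9 tested at T3. Over all genes 14.4% and 10.2% were lower. The part of smooth muscle in the Srf values was not tested.

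Yap1 had a ratio of 1.15, 1.17 and 1.90 at T0 and 1.45, 1.55 and 2.36 at T3. Every mouse had more Yap1 in HA than in IgG. The log2 fold change was 0.42 at T0 (SE 0.22, edgeR adjusted p = 0.175) and 0.92 at T3 (SE 0.28, edgeR adjusted p = 0.0221), and the latter call was lost without HA T3 replicate 1 (adjusted p = 0.0801), HA T3 replicate 4 (adjusted p = 0.110) or IgG T3 replicate 4 (adjusted p = 0.0607).

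Thbs1 differed in that its ratio was 0.912, 0.978 and 2.04 at T0 but 0.563, 0.513 and 0.592 at T3. At T3 every mouse had less Thbs1 in HA than in IgG. Neither log2 fold change passed, at 0.25 for T0 (SE 0.31, edgeR adjusted p = 0.580) and −0.68 for T3 (SE 0.40, edgeR adjusted p = 0.245), the latter being −0.085 without IgG T3 replicate 3 and −1.21 without HA T3 replicate 3. With the replicate block the T3 value of Thbs1 was −0.75 and did not pass (edgeR adjusted p = 0.0535). Amotl2 had ratios of 1.06 to 1.26 at T0 and 0.992 to 2.52 at T3 and did not pass at either time (adjusted p = 0.811 and 0.245). Its IgG T3 levels rested on 4, 4 and 6 counts, so its T3 ratios are imprecise. For Ankrd1 the IgG libraries held 0, 3 and 0 counts at T0 and 0 in each at T3. Its HA T3 levels of 21.3, 12.0 and 10.1 CPM were under the 34.0, 32.6 and 12.1 CPM that a count of 0 allows in the IgG libraries of the same mice, so that no single mouse showed a difference beyond that limit, and no fold is given. The filter left Ankrd1 out of this comparison. Over the 3 libraries of each group it was higher in HA when no filter was used (edgeR adjusted p = 0.0112) or with at least 5 counts in 1 library (edgeR adjusted p = 0.0123). It entered both of these fits only through HA T3, the group in which it was high, so these calls are not read as an enrichment.

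Ordered by mean CPM, Cyr61 was highest in HA T3 (1536 ± 211), then IgG T3 (403 ± 109), HA T0 (92.1 ± 14.4) and IgG T0 (32.8 ± 7.62), and no neighbouring groups overlapped (SD, n = 3 each). Ctgf was highest in HA T0 (687 ± 106), followed by HA T3 (329 ± 58.8), IgG T3 (218 ± 124) and IgG T0 (196 ± 117), of which HA T3 overlapped with IgG T3 and both IgG groups with each other. Thbs1 was highest in IgG T3 (263 ± 147), which overlapped with HA T3 (142 ± 69.3), and lower in HA T0 (50.3 ± 9.52) and IgG T0 (43.1 ± 17.2), which also overlapped. Yap1 was highest in HA T3 (319 ± 29.5), then IgG T3 (186 ± 41.0), HA T0 (154 ± 13.8) and IgG T0 (115 ± 30.5). Of these, HA T3 stood clear, whereas IgG T3 overlapped with HA T0, and HA T0 with IgG T0. Srf had means of 245 ± 93.0 in IgG T3, 244 ± 67.6 in IgG T0, 153 ± 36.0 in HA T0 and 136 ± 8.88 in HA T3, and each neighbour in this order overlapped with the next.

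Around the 7 genes, the Hippo and YAP-TEAD components had 19 of 25 genes tested in HA T3 against HA T0, of which 4 rose and 0 fell, with a median of 0.23. The share that rose was close to the 18.7% of all genes that did, and reads as no result about the list. The risers were Amotl1, another angiomotin (log2 fold change 1.41), Frmd6, an upstream Hippo activator (0.97), Map4k4, a kinase that acts on the Hippo kinases (0.71), and Wwc2, a scaffold of the pathway (0.64). When libraries were scaled by their totals, 2 rose and 2 fell and the median was −0.039. In the IgG pull-down Map4k4 (2.05) was the single one of 12 tested that rose.

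In HA against IgG, 4 of the 19 Hippo and YAP-TEAD components tested at T0 were higher and 3 lower, where 16% and 14.4% of all genes were. At T3, 1 of 16 was higher and 2 lower, against 11.8% and 10.2% of all genes. These counts read as no result about the list, and the TEAD factors that follow are described as single genes. Tead2 exceeded its IgG level in HA at T0 (log2 fold change 1.59, edgeR adjusted p = 0.00145) and at T3 (2.60, edgeR adjusted p = 0.00498). Tead1 was lower at T0 (−0.72) and T3 (−1.08), and Tead3 was lower at T0 (−0.78) and T3 (−0.90). These directions were the same when libraries were scaled by their totals or by DESeq2's size factors.

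Of the other YAP-TEAD targets, 18 of 20 were tested in HA T3 against HA T0, and 5 rose and 5 fell, with a median of −0.012, against 18.7% of all genes higher and 15.1% lower. The largest of the rises were Igfbp3, a binder of insulin-like growth factors (log2 fold change 2.76), Gadd45a, a growth arrest and DNA damage gene (2.23), and Fjx1 (1.61). The falls were led by Nt5e, the ecto-5′-nucleotidase CD73 (−1.50), Ajuba, a LIM protein that binds LATS kinases (−1.75), and Ccdc80 (−0.95). With scaling by totals 4 rose and 6 fell. Against IgG, 3 of 19 tested were higher in HA and 2 lower at T0, where 16% and 14.4% of all genes were. At T3, 5 of 12 tested were higher and 1 lower, against 11.8% and 10.2% of all genes. With scaling by totals 4 were higher and 1 lower at T3. As a single gene, Axl, a receptor tyrosine kinase, exceeded its IgG level in HA at T0 (2.46) and T3 (1.19).

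The SRF targets divided into their immediate early and actin arms. All 9 immediate early genes rose in HA, with a median log2 fold change of 5.31, and all 7 tested rose in IgG, with a median of 5.07. Over all genes tested, 18.7% rose in HA and 4.43% in IgG. Only 6 of the 9 were tested in HA T0 against IgG T0. The others passed the filter on low counts through T3, where they were high, and could hardly be called in the other direction. Fosb, a subunit of AP-1, rose by 7.47 in HA and 7.25 in IgG on the log2 scale, and Egr1, a zinc finger factor, by 5.56 and 5.19. Mcl1, a survival factor of the Bcl2 family, rose least of the 9, by 1.68 in HA. This list is also made of general stress genes that other factors control.

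In the actin arm, 20 of 21 genes were tested in HA T3 against HA T0, 2 rose and 4 fell, and the median was −0.27. Over all genes 18.7% rose and 15.1% fell, or 33.8% together, and the share of the actin list that changed was near it. The rises were Myh9, a nonmuscle myosin heavy chain (1.40), and Zyx, zyxin of focal adhesions (0.91). The falls were Acta2 (−1.27) and Actg2 (−0.70), the smooth muscle actins, Filip1l (−1.78) and Lmod1, leiomodin (−1.58). With scaling by totals 2 rose and 11 fell. In IgG T3 against IgG T0, Myh9 (1.34) and Itga5, an integrin subunit (2.16), rose and none of 19 fell. Over all genes tested there, 4.43% rose and 1.03% fell. Against IgG, 17 of 20 were lower in HA at T0 and 13 of 20 at T3, and 0 were higher at either time. Over all genes 14.4% were lower at T0 and 10.2% at T3. Acta2, Actg2, Tagln, Cnn1 and Lmod1 of the actin list are also in the smooth muscle list, which was lower in HA as well. The part of smooth muscle in these values was not tested. The list of SRF cofactors has 8 symbols that include older and newer names of the same genes, and 5 genes were tested. Of these 1 changed in HA, where 33.8% of all genes did. It was Mkl2 (Mrtfb), which fell by 1.80 on the log2 scale.

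**Figure D4:**
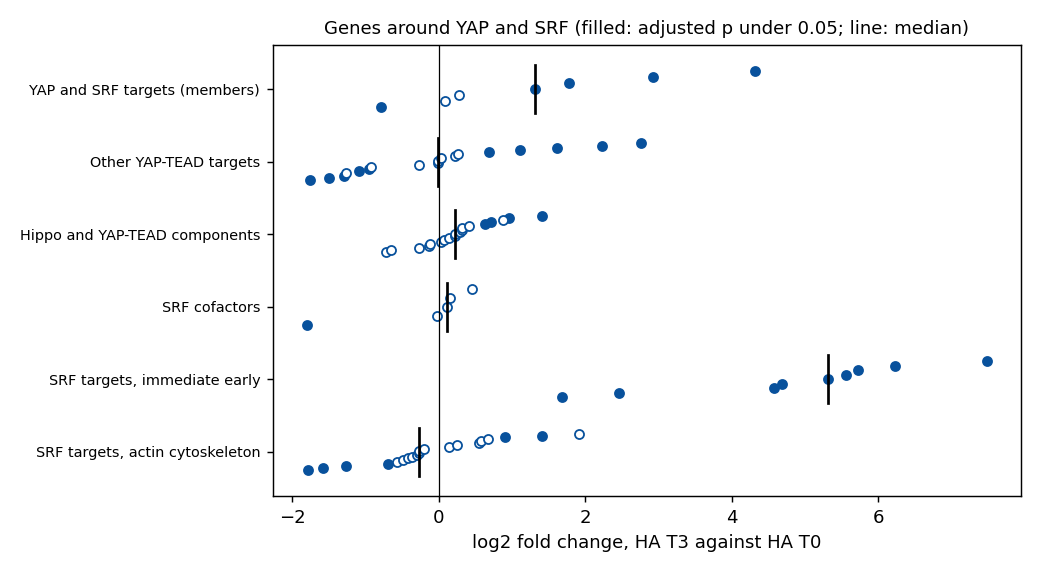
Log2 fold change of HA T3 against HA T0 (x axis) for the 7 genes and 5 lists around them; each point is a gene, filled if its edgeR adjusted p was under 0.05, and the line is the median of the list. The immediate early list lies to the right of 0 throughout with a median of 5.31, while the actin list has a median of −0.27.

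Profiles over the 12 libraries were compared by the root mean square difference of centred log2 CPM, given as a description over libraries that share groups and depth. Among the 7 genes, Amotl2 and Yap1 were closest (0.60) and Cyr61 and Srf farthest apart (2.32). Of the 10314 genes tested over all libraries, the nearest to Cyr61 were Vasn (0.32), Adamts1 (0.35) and Trib1 (0.49), and the nearest to Ctgf were Degs1 (0.34), Fkbp14 (0.37) and Tspan3 (0.37). Yap1 was nearest to Git1 (0.22), Tob2 (0.23) and Bcl2l1 (0.24), and Srf to Cenpb (0.23), Dnajb5 (0.26) and Ccm2 (0.27). Thbs1 was nearest to Txnrd1 (0.44), Jdp2 (0.47) and Slc25a25 (0.47), and Amotl2 to Triobp (0.19), Ercc3 (0.21) and Bloc1s1 (0.21). Ankrd1 had the loosest neighbours, Bcar3 (0.56), Lbh (0.62) and Gadd45a (0.64), of which Gadd45a is also in the list of YAP-TEAD targets.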

How the data were processed

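RNA was measured in 12 pull-down libraries of 6 mice. The deposited values were UMI counts per gene from a bulk variant of MARS-seq, which the authors obtained by trimming with cutadapt, mapping to mm10 with STAR (2.4.2a) and counting the 3′ ends of genes with HTSeq, keeping reads that mapped uniquely. The use of strand was not given in the sources used here, so overlapping genes are uncertain. The labels name a minimum of 5 reads in a sample, whereas 189 of 12975 genes were under 5 counts in every library. Single-sample files and the series table had 0 differing values. CPM was computed from library totals of 88136 to 2870591.

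Differences were tested on the counts in R 4.3.3 by edgeR 4.0.16 (quasi-likelihood F-test, two-sided, TMM scaling, filterByExpr, Benjamini-Hochberg over all genes tested, threshold 0.05). Contrasts between groups used 6 libraries and the interaction all 12. The SE given with edgeR values was derived from the test, as the absolute log2 fold change divided by the square root of F. The script was tested on simulated data. Alternatives were DESeq2 (1.42.0), other scalings and filters, a joint fit of the 12 libraries, a replicate block and the omission of each library. HA and IgG libraries with the same number at one time point come from the same mouse, and their deviations from the group means correlated at 0.268, 0.269 and 0.273 at T0 and 0.162, 0.153 and 0.0887 at T3 (across genes, which are not independent replicates). Equal numbers at T0 and T3 are different mice. Genes named from the pathway lists were, in the main, those with the smallest p in each direction, with others of the list where a sentence needed them. The 7 genes, the lists and the naming rule were chosen with earlier results of these data known.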

Additional observations from a re-analysis of the deposited data

How the results depend on the processing

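Where the main fit had tested a gene, 404 of 437 values of single genes in the alternatives kept their direction and their side of the threshold, 12 lost and 5 gained a call, and 16 changed sign. These values leave out Ankrd1 where the main fit did not test it, and so its calls in HA T3 against IgG T3. Each sign change concerned a value that had not passed. Scaling by totals gave −0.17 for Srf in HA T3 against HA T0 and −0.12 for its interaction. Ctgf in IgG T3 against IgG T0 was −0.092 without a filter, −0.065 with at least 5 counts in 1 library and −0.073 in the fit of all libraries. Leaving out 1 library at a time gave −0.12 to 0.27 for Srf in HA T3 against HA T0, −0.41 to 0.57 for Ctgf and −0.36 to 0.089 for Srf in IgG T3 against IgG T0, and −0.013 to 0.21 for Amotl2 and −0.076 to 0.61 for Thbs1 in HA T0 against IgG T0.

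Counts of all genes past the threshold moved most where IgG libraries entered. In IgG T3 against IgG T0 there were 285 such genes, 519 without a filter, 705 in the fit of all libraries and 162 to 334 with 1 library left out (162 without IgG T0 replicate 2, 167 without IgG T0 replicate 4 and 181 without IgG T3 replicate 4). HA T3 against IgG T3 had 1578, and 849 to 1977 with 1 library left out (971, 1019 and 849 without HA T3 replicates 1, 3 and 4, and 958 without IgG T3 replicate 4). The interaction had 34, which became 20 with DESeq2's size factors, 8 with total counts, 80 with DESeq2, 158 with the replicate block and 5 to 95 with 1 library left out, the highest without IgG T3 replicate 4 and the lowest without HA T3 replicate 4. In HA T3 against HA T0, 55.4% of the called genes were higher, against 31.1% with total counts. For the interaction these shares were 91.2% and 75%.

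Of the 7 genes, 1 to 3 passed in HA T0 against IgG T0 with 1 library left out, where 3 passed with all (1 without IgG T0 replicate 2 or HA T0 replicate 4). In HA T3 against IgG T3, 2 passed with all libraries and 1 to 3 with 1 library left out (1 without HA T3 replicate 1 or 4 or IgG T3 replicate 4). Without a filter or with at least 5 counts in 1 library 4 passed, among them Ankrd1, which entered only through HA T3. Srf in HA T0 against IgG T0 lost its call without a filter (adjusted p = 0.0707) and with at least 5 counts in 1 library (adjusted p = 0.0647). Besides Ctgf at T3, the replicate block changed no call among the 7 genes. The causes of these changes were not tested. Depth limits the IgG T3 group most.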

Other observations

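Of the list of relatives of Cyr61, Ctgf, Thbs1 and Ankrd1, with 14 symbols that include older and newer names of the same CCN genes, 6 were present. In HA T3 against HA T0, where 33.8% of all genes passed, 4 were tested. Thbs4, a thrombospondin of the extracellular matrix, was the single one that passed, and it fell by 0.72 on the log2 scale (SE 0.22, edgeR adjusted p = 0.0189), opposite in sign to Thbs1. Against IgG, Thbs4 was higher in HA at T0 (log2 fold change 2.02, SE 0.26, edgeR adjusted p = 7.21e-05) and at T3 (2.04, SE 0.57, edgeR adjusted p = 0.0154).

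Of the 10 receptors of CCN proteins and thrombospondin-1, 7 were tested in HA T3 against HA T0 and 0 passed in edgeR, where 33.8% of all genes did. With libraries scaled by their totals 4 were lower (Cd47, Itgb1, Itgb3 and Itgb5). That scaling moved the median of all genes to −0.29, and only 1202 of the 3862 genes it called were higher. Itga6, an integrin subunit, exceeded its IgG level in HA at T0 (log2 fold change 1.54, SE 0.39, edgeR adjusted p = 0.00809) and at T3 (2.25, SE 0.78, edgeR adjusted p = 0.0467), the latter passing neither with DESeq2's size factors nor with total counts (adjusted p = 0.0510 and 0.0607). Cd36, a receptor of thrombospondin-1, was lower in HA at T0 (−3.51, SE 0.52, edgeR adjusted p = 0.000220).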
